A study of Homo sapiens with 6 samples.

Results

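The window studied here is the stretch of chromosome 9 from 19000000 to 25000000 (GRCh38), which holds the tumour suppressor genes CDKN2A and CDKN2B and their neighbour MTAP in band 9p21. Its members are all ATAC-seq peaks that overlap the window, merged over the 6 deposited peak lists wherever they shared at least 1 bp. The merge gave 365 regions in the window of 507440 on chromosomes 1 to 22, X and Y. The cells were NCI-H1703, an established human line labelled as lung squamous cell carcinoma. In 3 libraries the long non-coding RNA DLGAP1-AS2 had been silenced and 3 libraries were controls; the library titles carry ASO and NC, and the labels do not spell these out. Nothing in the labels says that libraries of a group came from separate cultures, so p-values measure only the spread between these libraries, which may be technical. Values per library are given in the order of replicates 1, 2 and 3 of each group. ATAC-seq (a sequencing assay of accessible chromatin) inserts adapters into open DNA with a transposase, so a peak marks a place with more fragments than its surroundings.

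CDKN2A encodes 2 unrelated proteins from different promoters. One is p16, which inhibits the cyclin-dependent kinases CDK4 and CDK6 and so keeps RB1 active, and the other is ARF, which blocks the ubiquitin ligase MDM2. CDKN2B encodes the related inhibitor p15, and CDKN2B-AS1 is a long non-coding RNA read in the opposite direction across it. MTAP encodes the enzyme that recycles the methylthioadenosine left over from polyamine synthesis into the methionine salvage pathway. The locus is known for homozygous deletion in many carcinomas, often with MTAP and the neighbouring type I interferon genes. A deleted stretch gives no fragments and so no peaks, which is why stretches without a peak in any list were examined.

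The promoters that carry the comparison follow, each as 300 bases of the RefSeq promoter table (GRCh38.p14; 250 bases before and 50 after a transcript's start), written 5′ to 3′ on the gene's own strand. Capitals mark matches, on either strand, to 5 short motifs: the GC box GGGCGG, the CCAAT box CCAAT, the TATA box TATAAA, the AP-1 motif TGACTCA and the TEAD core GGAATG. The first 5 promoters lie at the tumour suppressor, MTAP and MIR31HG loci, and IFNB1 and HACD4 are shown because no list had a peak on them.
CDKN2A, ARF promoter, chr9:21995275-21995574, minus strand: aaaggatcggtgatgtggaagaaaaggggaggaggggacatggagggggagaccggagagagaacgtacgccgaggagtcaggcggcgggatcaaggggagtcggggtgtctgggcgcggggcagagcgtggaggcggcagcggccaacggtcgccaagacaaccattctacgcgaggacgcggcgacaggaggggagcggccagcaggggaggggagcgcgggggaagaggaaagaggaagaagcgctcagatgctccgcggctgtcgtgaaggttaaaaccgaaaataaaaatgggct
CDKN2A, p16 promoter, chr9:21974808-21975107, minus strand: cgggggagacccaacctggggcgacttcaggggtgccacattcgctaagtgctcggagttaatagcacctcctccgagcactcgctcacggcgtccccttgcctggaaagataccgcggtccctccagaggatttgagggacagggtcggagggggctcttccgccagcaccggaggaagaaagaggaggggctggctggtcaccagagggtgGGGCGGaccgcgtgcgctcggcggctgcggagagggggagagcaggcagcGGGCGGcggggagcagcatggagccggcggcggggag
CDKN2B, chr9:22009256-22009555, minus strand: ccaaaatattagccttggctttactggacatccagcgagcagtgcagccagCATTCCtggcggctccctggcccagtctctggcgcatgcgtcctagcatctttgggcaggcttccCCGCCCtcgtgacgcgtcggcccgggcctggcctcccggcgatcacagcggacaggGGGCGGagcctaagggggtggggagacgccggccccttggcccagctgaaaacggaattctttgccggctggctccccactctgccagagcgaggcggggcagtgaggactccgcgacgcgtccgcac
MTAP, chr9:21802386-21802685, plus strand: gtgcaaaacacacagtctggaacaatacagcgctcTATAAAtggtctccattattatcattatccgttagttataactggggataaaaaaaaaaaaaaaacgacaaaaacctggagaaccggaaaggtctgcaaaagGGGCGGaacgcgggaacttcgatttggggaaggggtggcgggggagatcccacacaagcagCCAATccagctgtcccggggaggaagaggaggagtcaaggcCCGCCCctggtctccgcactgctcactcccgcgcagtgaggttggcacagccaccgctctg
MIR31HG, chr9:21559749-21560048, minus strand: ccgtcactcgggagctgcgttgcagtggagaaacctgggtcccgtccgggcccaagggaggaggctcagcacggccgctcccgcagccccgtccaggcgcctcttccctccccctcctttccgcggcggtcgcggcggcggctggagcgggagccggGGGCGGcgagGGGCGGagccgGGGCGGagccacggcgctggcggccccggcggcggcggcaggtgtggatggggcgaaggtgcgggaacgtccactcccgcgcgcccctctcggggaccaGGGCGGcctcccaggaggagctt
IFNB1, chr9:21077893-21078192, minus strand: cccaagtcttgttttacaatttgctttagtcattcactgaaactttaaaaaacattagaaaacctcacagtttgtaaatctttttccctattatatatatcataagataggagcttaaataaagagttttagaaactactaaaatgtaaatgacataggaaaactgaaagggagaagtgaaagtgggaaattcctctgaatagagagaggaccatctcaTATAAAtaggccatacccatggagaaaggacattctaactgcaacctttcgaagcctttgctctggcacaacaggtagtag
HACD4, chr9:21031591-21031890, minus strand: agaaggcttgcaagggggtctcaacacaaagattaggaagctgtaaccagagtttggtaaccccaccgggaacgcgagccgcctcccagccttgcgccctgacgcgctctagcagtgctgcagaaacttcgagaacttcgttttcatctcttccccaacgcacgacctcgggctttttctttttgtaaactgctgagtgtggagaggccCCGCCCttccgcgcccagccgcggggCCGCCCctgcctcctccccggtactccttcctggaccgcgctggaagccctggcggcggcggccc
The ARF promoter holds 28 CpG dinucleotides and none of the 5 motifs, and the p16 promoter holds 26 CpG and 2 GC boxes. MIR31HG holds 39 CpG and 4 GC boxes. IFNB1 holds 1 CpG and a TATA box, and HACD4 holds 24 CpG and 2 GC boxes. A GC box was found in 45.0% of the 35116 promoters of the table, a CCAAT box in 34.6%, a TATA box in 11.5%, an AP-1 motif in 4.95% and a TEAD core in 14.0%. A match of letters is a description and not a bound site.

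In the full lists, no stretch without peaks covered CDKN2A, CDKN2B or MTAP. The promoters of all of these genes carried peaks in every library or, for the ARF promoter window, in 5 of 6. Between the start of MTAP and the end of CDKN2B-AS1 (21802636 to 22128142, 326 kb) the lists held 21, 26 and 20 peaks in silenced cells and 23, 13 and 24 in control cells. The lowest number belonged to control replicate 2, whose whole list was the shortest of the 6. These peaks merged into 54 regions, 7 of them called in all 6 lists, and the longest gap between regions that touches this span was 34.0 kb (22052885 to 22086925, inside CDKN2B-AS1).

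The p16 promoter region (21974658 to 21975421, inside CDKN2A) had peak heights of 16, 25 and 7 in silenced cells and of 18, 21 and 20 in control cells. The height is the deposited pileup of fragments at a peak, and no scaling between libraries is stated. Silenced replicate 3 was the lowest, and the groups overlapped. The weakest false discovery rate (FDR, the authors' adjusted p-value for a peak) in any list was 7.49e-06. The region at the shared start of CDKN2A's ARF transcript and CDKN2B-AS1 (21994156 to 21995630) had heights of 23, 22 and 9 in silenced cells and 30, 18 and 20 in control cells. In the narrower 300 base ARF promoter window silenced replicate 2 had no peak, and the other 5 libraries had heights of 8 to 12. The region at the start of CDKN2B (22008596 to 22009740) had heights of 24, 30 and 9 in silenced cells and 17, 24 and 28 in control cells. Again silenced replicate 3 was lowest and the groups overlapped at both regions.

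The MTAP promoter region (21801998 to 21803008) was the most even of these promoters, with heights of 15, 17 and 15 in silenced cells and 14, 21 and 18 in control cells. Its weakest FDR was 4.49e-12. Within the MTAP gene, 28 regions were called in at least 1 list and 3 in all 6, among them one at 21831961 to 21832524 with heights of 14, 10 and 7 in silenced cells and 10, 14 and 10 in control cells. From there to the upper end of MTAP no region was called in more than 4 lists, and heights were 2 to 6. At an FDR of at most 1e-05 no list had a peak from 21832525 to 21974657 (142 kb), which takes in that rest of the gene. Farther along, CDKN2B-AS1 contained a region at 22103124 to 22103677, 24742 bp from the nearest gene end, with heights of 11, 14 and 9 in silenced cells and 9, 16 and 11 in control cells. These groups overlapped too.

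**Figure D1:**
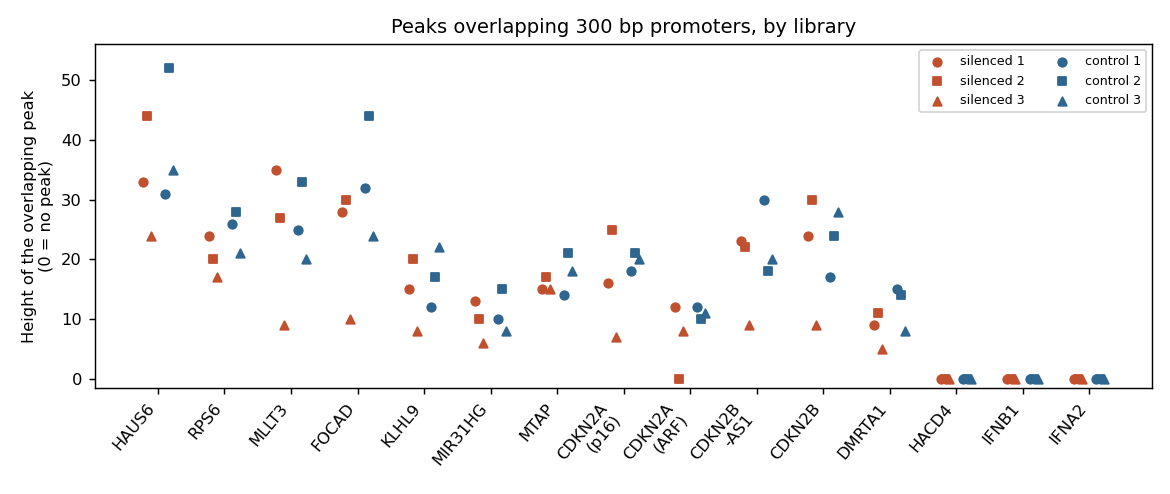
Height of the peak that overlaps each 300 bp promoter, on a linear axis, for 15 promoters; each point is 1 library, orange for silenced and blue for control, with the shape giving the replicate, and 0 stands for no peak. CDKN2A, CDKN2B and MTAP carry peaks of 7 to 30 apart from the one missing ARF call in silenced replicate 2, and HACD4, IFNB1 and IFNA2 are at 0 in all 6 libraries.

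The 3 longest stretches without a peak lay on the far side of DMRTA1, a gene for a DM-domain transcription factor. The longest ran over 243 kb, from 24246298 to 24489502, and no protein-coding or lncRNA gene overlapped it. It was the 122nd longest of 506870 stretches between neighbouring regions on chromosomes 1 to 22 and X, those over unassembled sequence included. It was bounded by a peak of height 3 in silenced replicate 2 alone and by a peak of height 3 in silenced replicate 3 alone. The next in length were 179 kb (23312832 to 23492175, with the lncRNA gene LOC105369298) and 175 kb (24563131 to 24738139, with no gene). The 179 kb stretch lay between a peak of height 3 in control replicate 3 alone and a region called in 5 lists at heights of 4 to 6. The 175 kb stretch lay between a peak of height 3 in silenced replicate 2 alone and one of height 2 in control replicate 1 alone. Of the 6 edges of these stretches, 5 thus rest on a weak call in 1 list.

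Of the 60 bins of 100 kb in the window, 3 (5.00%) had no peak in any list, against 6.86% of the 30283 bins of chromosomes 1 to 22 and X. A peak in all 6 lists was found in 24 bins (40.0%), against 66.7% of all bins. The last of these 24 bins begins at 22400000, and the bins that cover MTAP, CDKN2A and CDKN2B are among them. The bins of chromosomes 1 to 22 and X run from each chromosome's start to its last peak, with unassembled sequence left in. Such sequence can hold no peak, so these shares do not show how the window stands among assembled bins. The peak lists hold no read coverage and copy number was not measured, so a stretch without peaks shows only that nothing passed the authors' call limit there.

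**Figure D2:**
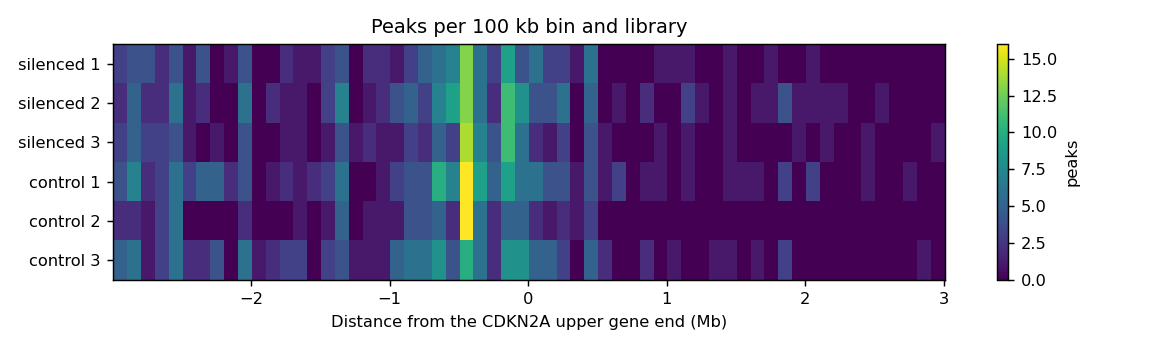
Number of peaks in each 100 kb bin (colour) for the 6 libraries (rows), by distance from the upper end of the CDKN2A gene in Mb. Counts are highest in the bin of MIR31HG, stay above 0 in every library at CDKN2A and MTAP, and are at or near 0 above DMRTA1.

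The window divides at 22470322, the end of its last region called in all 6 lists; this position was taken from the data after they were seen. Up to it lay 312 regions, 33 protein-coding genes and 11 lncRNA genes in 3.47 Mb, and libraries had 24.2 to 42.6 peaks per Mb. Beyond it lay 53 regions, 2 protein-coding genes (ELAVL2, for a neuronal RNA-binding protein, and IZUMO3) and 11 lncRNA genes in 2.53 Mb, and libraries had 0 to 7.51 peaks per Mb. The rest of chromosome 9 had 23.8 to 44.2 peaks per Mb and the other chromosomes (1 to 22 and X) 30.5 to 57.0, with unassembled sequence counted in these lengths. The silenced libraries had 6, 19 and 8 peaks in this upper part and the control libraries 19, 0 and 12. The groups overlapped, and control replicate 2 had none at all from 22470243 to 25677382, beyond the window's edge. That list holds hardly any peaks lower than 4 (2.46%, against 48.1% to 52.1% in the other lists), and no peak of the upper part was higher than 7 in any list. Of 1202 tiles of 2.5 Mb over chromosomes 1 to 22 and X, 6.24% had fewer regions than the 53 found here. The upper part was set by its lack of shared regions and the tiles were not, so this share is a description and no test. For the whole window, 10.1% of 495 tiles of 6 Mb had fewer than its 365 regions, and the median tile had 1073. Unassembled sequence was not taken out of either set of tiles.

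In the upper part a single region was called in 5 lists, at 23492176 to 23492506, 7807 bp from the end of LOC105369298. Its heights were 5, 4 and 6 in silenced cells and 5 and 6 in control replicates 1 and 3. The tallest region within ELAVL2 (23821347 to 23821724) was called in silenced replicate 2 (height 5) and control replicate 1 (height 4). Within 1 kb of an end of ELAVL2, peaks were called in silenced replicate 2 (height 4) and in control replicates 1 and 3 (height 3 in both). No ELAVL2 promoter was covered in more than 2 lists, and none of the lists had a peak at IZUMO3, which encodes a sperm protein.

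**Figure D3:**
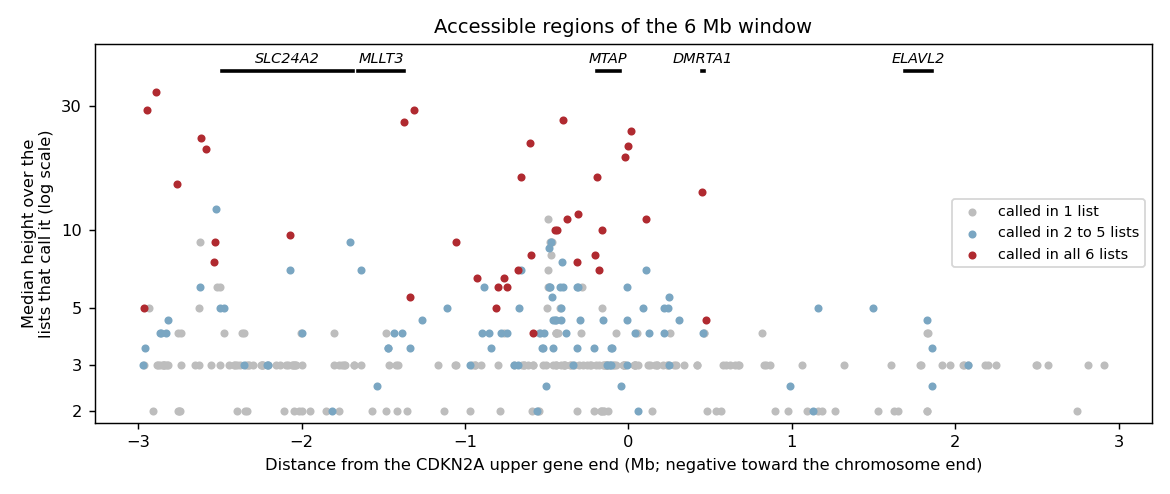
Each point is 1 of the 365 regions, by distance from the upper end of CDKN2A in Mb and by its median height over the lists that call it (log axis); colour gives the number of lists, and black bars mark gene spans. Regions called in all 6 lists (red) stop near DMRTA1, where the upper part was set to begin. Of the 53 regions beyond, 45 were called in 1 list. Over all regions 74.1% were, but these include regions called in all 6 lists, which the upper part lacks by how it was set.

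The densest bin of the window held MIR31HG, the host gene of the microRNA miR-31, which lies close enough to CDKN2A to be deleted with it in some tumours. The mature microRNA, with its seed (bases 2 to 8) in capitals, is read from the minus strand of chr9:21512158-21512178.
hsa-miR-31-5p: aGGCAAGAugcuggcauagcu
The bin from 21500000 to 21599999 held 82 peaks over the 6 lists, against a median of 27 over all bins, and 0.928% of bins held more. The MIR31HG promoter region (21559127 to 21560779) had heights of 13, 10 and 7 in silenced cells and 10, 15 and 8 in control cells, with overlapping groups. The tallest region nearby lay 32120 bp outside the gene, at 21591553 to 21592284, with heights of 32, 18 and 18 in silenced cells and 33, 27 and 26 in control cells. Its weakest FDR was 2.69e-15, and silenced replicate 1 stood with the controls.

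Inside MIR31HG, around the microRNA, no region was shared by more than 3 libraries. In MIR31 and 15 kb to either side (21497115 to 21527185, 30.1 kb; chosen after the values were seen) the silenced libraries held 3, 4 and 3 peaks and the control libraries 3, 4 and 2. They merged into 12 regions, of which 8 were called in 1 list, 4 in 2 or 3 lists and 0 in more, although heights reached 11. Calls in few lists are usual: over all regions 74.1% were called in 1 list, 10.4% in 2 and 3.64% in 3. The local background was also above the lowest of each list. The background behind a peak was computed as (height + 1) / fold enrichment − 1, and its lowest value in a list was taken as that library's floor. Around MIR31 the median background was 3.36, 3.16 and 3.30 times the floor in silenced cells and 3.58, 4.38 and 4.22 times in control cells. All 3 silenced medians lay below the control medians, on 2 to 4 peaks a library and with no test, but with 10, 20 or 30 kb to either side (widths added after the data were seen) the groups overlapped. Of the peaks of a list, 11.7% to 19.4% exceeded its median given here. MIR31 itself had a peak within 1 kb in silenced replicates 1 and 2 (both of height 6) and control replicate 1 (height 5). In the upper part beyond DMRTA1 the background was above the floor at 2 of 64 peaks, both in control replicate 1. Over a whole list it was above the floor at 45.3% to 85.4% of peaks, and over a library's window peaks at 30.6% to 65.5%.

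The type I interferon genes, a cluster of intronless antiviral cytokine genes between IFNB1 and IFNE, carried almost no peaks at their own ends. Within 1 kb of a gene end, 14 of the 16 had no peak in any list and 0 had one in all 6. Over all 20037 protein-coding genes, 58.0% had such a peak in all 6 lists and 16.5% in none. The exceptions were IFNW1, with heights of 7 and 4 in silenced replicates 1 and 2 and 4 in control replicate 3, and IFNA8, with a height of 3 in silenced replicate 2 alone. Between the genes regions were shared by the libraries: from IFNB1 to IFNE (405 kb), 40 regions were called and 9 of them in all 6 lists. The tallest lay at 21392085 to 21392751, 7020 bp from IFNA2, with heights of 22, 13 and 15 in silenced cells and 21, 24 and 30 in control cells. The groups overlapped at this region. KLHL9, which encodes a ubiquitin ligase adaptor and sits among the interferon genes, had a promoter region (21334932 to 21335648) in every list, with heights of 15, 20 and 8 in silenced cells and 12, 17 and 22 in control cells.

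Most protein-coding genes of the window had peaks at a gene end (within 1 kb) in all lists or in none. Such peaks were called in all 6 lists at 12 of the 35 genes (34.3%), against 58.0% of all 20037 protein-coding genes. They were called in none at 19 (54.3%), 14 interferon genes included, against 16.5%. The 35 hold CDKN2A, CDKN2B, MTAP and all 16 interferon genes. FOCAD counts among the 19 although its promoter had a peak in every list, because that promoter lies inside the gene's RefSeq span. SLC24A2 counts among them for the same reason. Its promoter had peaks in silenced replicate 3 (height 3) and in control replicates 1 and 3 (heights 7 and 3). The tallest region of the window lay at the start of HAUS6, a subunit of the augmin complex that builds spindle microtubules, with heights of 33, 44 and 24 in silenced cells and 31, 52 and 35 in control cells. At the shared start of SAXO1 and RRAGA, a GTPase that signals amino acids to mTORC1, heights were 30, 41 and 19 in silenced cells and 27, 28 and 42 in control cells. At the promoter of FOCAD, which encodes focadhesin, they were 28, 30 and 10 in silenced cells and 32, 44 and 24 in control cells. At MLLT3, a subunit of elongation complexes, they were 35, 27 and 9 in silenced cells and 25, 33 and 20 in control cells. At RPS6, the ribosomal protein S6, they were 24, 20 and 17 in silenced cells and 26, 28 and 21 in control cells. Silenced replicate 3 was the lowest library at each of these 5 regions. Over the 39 regions called in all 6 lists it was the sole lowest at 22, and control replicate 2 was the highest, alone or tied, at 17. At the fat droplet protein gene PLIN2 the promoter carried a peak of 10 in silenced replicate 1, 4 in silenced replicate 2, 4 in control replicate 1 and 3 in control replicate 3, and none in the other libraries.

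Promoter sequence and calls ran together over the window. RefSeq gives 58 promoter windows for 47 of its genes, and 15 of these (25.9%) were overlapped by a peak in all 6 lists and 33 (56.9%) by none, against 36.3% and 45.3% of the 35116 promoters of the table. All 25 window promoters with fewer than 5 CpG were without a peak in every list; of the 10410 such promoters in the table, 79.4% were. Of the 28 with 15 or more CpG, 15 (53.6%) had a peak in all 6 lists, against 65.9% of such promoters in the table. Another 4 of the 28 (14.3%) had no peak in any list, against 17.3% of such promoters in the table. They were the promoters of HACD4, a fatty acid elongation enzyme, with 24 CpG, and its neighbour LOC105375989 with 31. The others lay at a start shared by ELAVL2 and LOC105375992, with 20 and 21. Promoters of neighbouring genes overlap in part, so these counts are not of independent sequences. The promoters given for IFNB1, IFNE and the IFNA genes are all among the 25 with fewer than 5 CpG, so that count partly repeats the interferon result above.

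**Figure D4:**
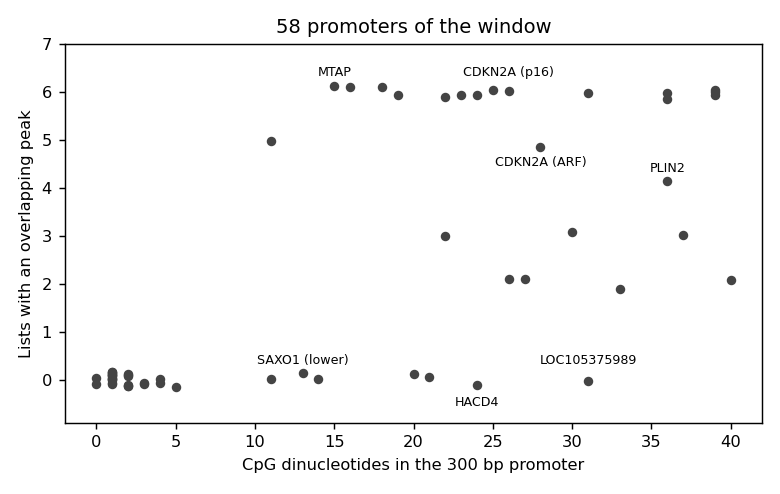
Number of lists with a peak on each of the 58 promoters of the window (vertical axis, points spread slightly to separate them) against the number of CpG dinucleotides in its 300 bases. Promoters with fewer than 5 CpG all sit at 0 lists, promoters called in all 6 lists hold 15 to 39 CpG, and HACD4 and LOC105375989 sit at 0 lists with 24 and 31.

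Partner genes elsewhere in the genome were described from fixed lists by the same measure of peaks at gene ends. Of 12 genes around CDK4, CDK6 and MDM2, 10 had one in all 6 lists, among them CDK4, CCND1, RB1 and MDM2. CDK6 had heights of 4 to 20 in 5 lists and none in control replicate 3. The kinase inhibitor gene CDKN1A had none at its ends in any list, but every list had 2 to 4 peaks inside its span. A start that lies inside a gene's span is missed by this measure. Of 10 genes of methionine salvage and its partners, 9 had a peak at a gene end in all 6 lists. They included PRMT5, a methyltransferase known as a vulnerability of MTAP-deleted cells, and MAT2A. All 6 interferon receptor and signalling genes described (IFNAR1, IFNAR2, JAK1, TYK2, STAT2 and IRF9) had one in every list. The background share in all 6 lists, over protein-coding genes, is the 58.0% given above.

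The comparison of silenced with control cells asked whether silencing DLGAP1-AS2 moved accessibility in the window. The silenced libraries had 124, 149 and 109 peaks in the window and the control libraries 167, 84 and 147. The means were 127 ± 20.2 (SD, n = 3) and 133 ± 43.3 (SD, n = 3), and the groups overlapped (two-sided exact permutation p = 1, adjusted p = 1 over 3 tests). Per 10000 peaks of the whole list the values were 7.65, 8.87 and 8.98 in silenced cells and 9.77, 9.20 and 8.87 in control cells. Silenced replicate 1 was lowest and control replicate 1 highest, with means of 8.50 ± 0.738 (SD, n = 3) and 9.28 ± 0.456 (SD, n = 3) (exact permutation p = 0.2, adjusted p = 0.6). Of 57 protein-coding and lncRNA genes, the silenced libraries had peaks at the ends of 20 ± 1.73 (SD, n = 3) and the controls at 20.7 ± 4.51 (SD, n = 3), with an exact permutation p of 1 and an adjusted p of 1. With 3 libraries against 3 this test cannot go below 0.1, so none of these differences could pass 0.05.

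Of the 365 regions, 39 (10.7%) were called in all 6 lists, against 7.35% of all regions, and 232 (63.6%) in 1 list, against 74.1%. The 39 had a median height of 10, against 16.5 over the 37284 regions of the genome called in all 6 lists, and 13 of them (33.3%) lay within 1 kb of a gene end, against 34.3%. No region was called in all 3 silenced libraries and no control library; over all regions 0.130% were. In the reverse direction 3 regions (0.822% of the window's) were called in all 3 control libraries and no silenced one, against 0.200%. One lay 34385 bp from PLIN2 (19161679 to 19162075), with heights of 5, 4 and 3 in control cells. Another lay 37672 bp outside MIR31HG (21597315 to 21597626), with heights of 6, 6 and 10. The third lay 86072 bp beyond CDKN2B-AS1 (22214059 to 22214369), with heights of 6, 5 and 5. A region called in 3 libraries against 0 has no test of its own at this group size, and all 3 were low.

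The heights of the 39 shared regions did not overlap between the groups at 2, both lower in silenced cells; over the genome 8.79% of shared regions were of this kind and 0.161% of the reverse. One lay 19967 bp from LOC107987026, between MIR31HG and MTAP (21677817 to 21678348), with heights of 5, 5 and 5 in silenced cells and 12, 10 and 10 in control cells. The other lay 6698 bp from IFNB1 (21070054 to 21070758), with heights of 6, 3 and 5 in silenced cells and 7, 11 and 7 in control cells. Since no scaling of heights between libraries is stated, each region was also ranked by fold enrichment within its list, and the ranks were compared as normal scores, in which 1 unit is 1 SD over the shared regions. At the first region the difference, silenced minus control, was −0.77 ± 0.40 (SE; limma with Benjamini-Hochberg adjustment over 37284 regions, adjusted p = 0.963), and at the second −0.76 ± 0.47 (limma adjusted p = 0.963). On the rank scale the groups overlapped at all 39 regions, against 5.39% of shared regions that did not overlap with silenced higher and 4.78% with silenced lower.

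Ranks of the 39 regions did not pass the test in either direction (0 at an adjusted p under 0.05 and 0 at an unadjusted p under 0.05 by limma, against 0.00% and 4.68% of all shared regions). The median difference was 0.013 score units, with 21 regions higher and 18 lower in silenced cells, against a median of 0.007 and 50.9% higher over all shared regions. The lowest p-value was at a region inside FOCAD (20940934 to 20941435), with heights of 4, 11 and 3 in silenced cells and 11, 9 and 9 in control cells and a difference of −0.85 ± 0.43 (SE; limma adjusted p = 0.963). Toward higher ranks in silenced cells, the lowest p-value was at a region 56597 bp outside MIR31HG (21616103 to 21616688), with heights of 11, 14 and 11 in silenced cells and 14, 10 and 8 in control cells and a difference of 0.40 ± 0.31 (SE; limma adjusted p = 0.965). The next were a region inside FOCAD (20658146 to 20658899) at 0.51 ± 0.46 (SE) and the MTAP intragenic region at 21831961 at 0.37 ± 0.34 (SE), both with a limma adjusted p of 0.965.

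At the tumour suppressor promoters the differences in rank were small beside their errors. The p16 region differed by −0.01 ± 0.28 (SE), the ARF and CDKN2B-AS1 region by 0.15 ± 0.32 (SE), the CDKN2B region by 0.14 ± 0.27 (SE) and the MTAP region by 0.17 ± 0.25 (SE), with limma adjusted p-values of 0.973 to 0.999. In percentiles among the shared regions of a list, the p16 region ran from 42.4 to 68.4 over the 6 libraries, the ARF and CDKN2B-AS1 region from 26.3 to 64.5, the CDKN2B region from 50.5 to 77.7 and the MTAP region from 53.8 to 79.8. Silenced replicate 3 gave the lowest of these percentiles at the p16 and CDKN2B regions and the highest at MTAP. In simulated data, 0 of 200 regions shifted by 1 score unit were recovered and 111 of 200 shifted by 2, so a shift of 1 unit could not be detected here.

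**Figure D5:**
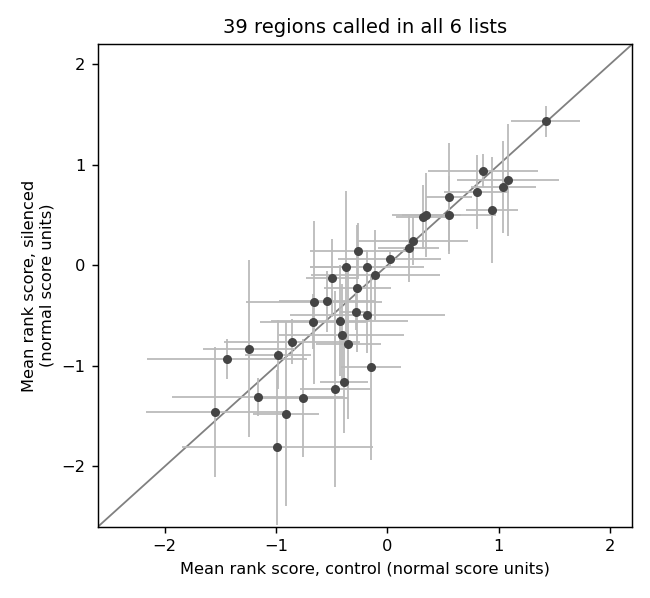
Mean rank score of each of the 39 regions called in all 6 lists, control (horizontal) against silenced (vertical), in normal score units; bars are 1 SD over 3 libraries and the line marks equality. The vertical bars of 34 of the 39 regions reach the line.

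Over the whole series, lists held 91346 to 170882 peaks, the shortest in control replicate 2, and total reads are unknown because the lists do not give them. The lowest background was 0.237 in silenced replicate 3 and 0.464 in control replicate 2, with 0.369 to 0.402 in the other libraries. Markers set for the labelled tissue were mixed: of 7 squamous markers, SOX2 had a peak at a gene end in all 6 lists (heights 10 to 22), TP63 in 4 (heights 2 to 5), DSG3 in 2, KRT5, KRT14 and PKP1 in 1 each, and KRT6A in none. Of 4 adenocarcinoma markers, 3 had one in all 6 lists, NKX2-1 (heights 16 to 36), NAPSA and SFTPC (heights 5 to 11). The SFTPC peak lay outside the gene's span in silenced replicates 1 and 3, and SFTPB had a peak at a gene end in 2 lists. Of 4 epithelial markers, KRT8 had one in all 6 lists (heights 5 to 9), KRT18 in 4, EPCAM in 3 and CDH1 in 2. Of 3 blood cell markers, SPI1 had one in all 6 (heights 23 to 45), and PTPRC and CD3E in 2 each. The mesenchymal markers VIM, CDH2 and ZEB1 had one in all 6. These marker counts cover gene ends only, and 58.0% of all protein-coding genes had such a peak in all 6 lists. Inside the gene span, every list had peaks at TP63 (6 to 24), PKP1, EPCAM, CDH1, KRT18 and PTPRC. KRT5, KRT14, KRT6A, DSG3 and CD3E had peaks inside the span in 1 to 4 lists. What these calls say of the cells' identity was not tested, and they did not enter the comparisons.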

How the data were processed

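ATAC-seq peak lists of 6 NCI-H1703 libraries (3 silenced for DLGAP1-AS2, 3 control) were analysed. Per the submitters' processing notes the build was GRCh38 and the tools included Trimmomatic 0.36, Bowtie2 2.2.6, Picard 2.8.2, MACS2 2.1.1 and bedtools 2.25.0; which step each served, and whether reads were offset for the enzyme, is not given in the sources used here. Per the file headers, the authors deposited for each peak its interval, a fold enrichment (a ratio over background), a p-value with an FDR, and a pileup signal, here called height. Peak names carry 1 library's prefix, so calls were made per library. The highest deposited p-value was 0.00987 and the shortest interval 200 bp.

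Overlapping peaks (1 bp or more) on the autosomes and sex chromosomes were merged. Values per library were compared by two-sided exact permutation, and ranks of fold enrichment over regions called in all 6 lists by limma 3.58.1 (R 4.3.3, trend prior), tested on simulated data. A gap that crosses a window edge was followed to the next region. Genes and promoters came from RefSeq tables of GRCh38.p14, which give no exons, so exons, introns and UTRs were not used here. A gene end is either end of a gene's span. All genes of the lists matched the table except CDKN2A-DT, which was not used here, and 2 genes of the partner lists are not reported here. Regions to name were those beside the 3 longest empty stretches, the 8 tallest shared regions, those called in 1 group only and the 3 with the lowest rank p-value in each direction; regions inside the widest span without a shared region are given by counts. The window, lists and tests were chosen with earlier results of these data known. Alternatives were FDR, height and distance limits, equal list sizes, midpoint windows, other ranks, left-out libraries and a replicate block.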

Additional observations from a re-analysis of the deposited data

How the results depend on the processing

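The longest gap touching the span from MTAP to CDKN2B-AS1 was 34.0 kb in the full lists, 34.0 to 44.3 kb with 1 library left out, 91.8 kb counting regions called in at least 2 lists, at an FDR under 0.05, at a height of at least 4 and with equal list sizes, 142 kb at an FDR of at most 1e-05 and 343 kb counting only regions called in all 6 lists (alternatives chosen after seeing the data). The longest empty stretch of the window, 243 kb, was 243 to 309 kb with 1 library left out, 419 kb at an FDR under 0.05 and with equal list sizes, 932 kb counting regions called in at least 2 lists, 1153 kb at a height of at least 4, 2185 kb at an FDR of at most 1e-05 and 3207 kb counting only regions called in all 6 lists; fewer regions then end a stretch. Regions called in every list numbered 39, 15 under the strictest FDR limit and 30 to 44 under the other settings. The difference in peaks per library (silenced minus control, −5.33) ran from −29.7 to 11.8 with 1 library left out, and it reversed without silenced replicate 3 (3.83), control replicate 1 (11.8) and control replicate 3 (1.83). The difference per 10000 peaks (−0.781) kept its sign, from −1.02 to −0.356 with 1 library left out. The difference in genes with a peak (−0.667) reversed to 1.33 at an FDR under 0.05 and with equal list sizes, to 0.667 at a height of at least 4 and to 1.5 without control replicate 3, and ran from −3 to 1.5 with 1 library left out; the cause was not tested. Regions called only in control libraries numbered 2 or 3 under the filters and 3 to 8 with 1 library left out (8 without control replicate 2, 6 without control replicate 3), and only in silenced libraries 0 under the filters and 0 to 2 with 1 library left out (2 without silenced replicate 3, 1 without silenced replicate 1 or control replicate 1). Leaving out a library also leaves fewer to meet the condition. The rank comparison gave 0 window regions under each alternative, with 0 to 4 at an unadjusted p under 0.05 (4 without silenced replicate 3). Pairing by replicate number (replicate block) left the mean differences at −5.33, −0.781 and −0.667, with exact sign-flip p-values of 1, 0.5 and 1 that cannot go below 0.25, and gave 0 regions in limma; same-numbered libraries did not deviate together (mean correlation −0.00263). Total reads are unknown, so how depth limits weak calls was not tested.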
